A study of Mus musculus with 12 samples.

Results

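Open chromatin was described around 10 genes that define or mark mouse hematopoietic stem cells (HSCs): Slamf1, Cd48, Kit, Ly6a, Procr, Cd34, Eng, Esam, Fgd5 and Ctnnal1. The data were 12 lists of ATAC-seq peak summits, the single bases at which a peak caller placed the strongest enrichment of transposase cuts. All libraries came from bone marrow HSCs of C57BL/6 mice, sorted as Lin-/cKit+/Sca1+/Flk2-/CD48-/CD150+, in 4 groups of 3: Young WT and Young Mlkl-/- at 3 months, and Aged WT and Aged Mlkl-/- at 18 months. Mlkl-/- mice lack MLKL, the pseudokinase that executes necroptosis, and no other allele or treatment is given for any group. The methods give HSCs pooled from 6 young or 3 aged mice for each library, all prepared on the same day, so that replicates are pools and p-values measure the spread between pools. Summits with a score of 3 or more, the score being the −log10 of the peak caller's q-value, were extended by 250 bp on each side and merged over the 12 lists into 71006 regions. Of these, 39 had their highest summit inside one of the 10 genes or within 10 kb on either side (38 lay wholly within these bounds), and they are named here by gene and by the distance of that summit from the gene's annotated start in the direction of transcription.

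CD150, encoded by Slamf1, and CD48 belong to the SLAM family of immune cell receptors, and their combination, with CD150 present and CD48 absent, separates HSCs from the progenitors they give rise to. Kit is the receptor for stem cell factor, and Ly6a encodes Sca-1, a small lipid-anchored surface protein. Procr (the endothelial protein C receptor EPCR), Eng (endoglin, a coreceptor for transforming growth factor β), Esam (an adhesion molecule) and Cd34 (a sialomucin) are shared by HSCs and endothelial cells. Fgd5, a guanine nucleotide exchange factor, and Ctnnal1, which encodes the cytoplasmic protein α-catulin, are not surface proteins but are used to mark HSCs by reporter alleles. Open chromatin at a gene shows where transposase can reach the DNA and is not a measure of the gene's RNA or of the protein on the cell.

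The sequences of 8 regions are shown, namely the 7 with an unadjusted p under 0.05 for age and, as the highest placed region of all 39, Eng -8.4 kb. Each run covers 100 bases on either side of the highest summit, taken from the GRCm38 assembly (the build mm10), plus strand, 5′ to 3′. Capitals mark the letters searched for on either strand, which were AGGAAGT for ETS factors, TGTGGTT for RUNX factors, AGATAA for GATA factors, TGANTCA for AP-1 and CAGCTG for the E-box, and no matches overlapped in these runs. The 8 were chosen after their values were seen. The positions, in the order shown, were chr1:171761913-171762113, chr1:171773318-171773518, chr15:74988659-74988859, chr2:155743065-155743265, chr2:155755780-155755980, chr1:194943624-194943824, chr4:56865266-56865466 and chr2:32638081-32638281.
Slamf1 -5.1 kb: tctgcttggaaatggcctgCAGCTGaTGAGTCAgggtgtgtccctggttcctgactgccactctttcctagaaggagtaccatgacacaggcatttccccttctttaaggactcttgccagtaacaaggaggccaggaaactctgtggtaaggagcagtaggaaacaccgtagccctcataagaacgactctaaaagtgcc
Slamf1 +6.3 kb: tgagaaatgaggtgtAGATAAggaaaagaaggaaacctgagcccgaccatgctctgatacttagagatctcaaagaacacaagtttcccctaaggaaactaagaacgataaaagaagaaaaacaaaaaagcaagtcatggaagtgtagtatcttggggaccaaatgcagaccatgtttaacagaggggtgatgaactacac
Ly6a +9.3 kb: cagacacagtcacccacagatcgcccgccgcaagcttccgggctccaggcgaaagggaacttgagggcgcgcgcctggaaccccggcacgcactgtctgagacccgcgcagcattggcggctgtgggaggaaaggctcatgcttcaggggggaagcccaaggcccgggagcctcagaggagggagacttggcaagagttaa
Procr -8.0 kb: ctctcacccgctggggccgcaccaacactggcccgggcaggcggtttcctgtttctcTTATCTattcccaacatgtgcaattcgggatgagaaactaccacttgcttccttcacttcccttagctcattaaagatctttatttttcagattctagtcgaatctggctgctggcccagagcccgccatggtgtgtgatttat
Procr +4.8 kb: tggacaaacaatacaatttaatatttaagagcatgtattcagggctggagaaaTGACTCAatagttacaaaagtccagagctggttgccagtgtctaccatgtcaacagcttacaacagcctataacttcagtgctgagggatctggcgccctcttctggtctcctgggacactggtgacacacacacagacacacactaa
Cd34 +4.9 kb: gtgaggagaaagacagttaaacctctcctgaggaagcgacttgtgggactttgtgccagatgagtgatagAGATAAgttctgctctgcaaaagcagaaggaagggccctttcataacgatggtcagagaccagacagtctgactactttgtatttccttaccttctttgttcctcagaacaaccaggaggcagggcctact
Ctnnal1 start: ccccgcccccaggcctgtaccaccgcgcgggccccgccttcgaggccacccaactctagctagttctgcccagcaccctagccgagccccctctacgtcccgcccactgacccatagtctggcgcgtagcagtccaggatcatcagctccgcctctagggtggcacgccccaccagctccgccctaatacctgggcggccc
Eng -8.4 kb: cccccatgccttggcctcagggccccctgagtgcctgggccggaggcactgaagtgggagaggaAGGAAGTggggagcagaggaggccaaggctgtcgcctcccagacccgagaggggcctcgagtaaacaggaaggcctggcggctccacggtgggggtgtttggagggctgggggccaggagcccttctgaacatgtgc

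By annotation, Slamf1 +6.3 kb and Cd34 +4.9 kb lay in intron 1 of their genes, Ly6a +9.3 kb in a non-coding exon, and the other 5 between genes, of which the summit of the Ctnnal1 start lay 0.178 kb upstream of that gene. A match was present in 6 of these 8 runs. Slamf1 -5.1 kb carried an E-box 1 base away from an AP-1 match, Slamf1 +6.3 kb, Procr -8.0 kb and Cd34 +4.9 kb each carried a GATA match, Procr +4.8 kb an AP-1 match and Eng -8.4 kb an ETS match. Over the 23 member regions that could be tested, the GATA letters were present in 4 (17.4%, against 8.56% of all 37876 tested regions), ETS in 3 (13.0% against 16.1%), AP-1 in 3 (13.0% against 10.1%), RUNX in 1 (4.35% against 10.5%) and the E-box in 1 (4.35% against 15.1%). The median GC content of these windows was 58.2% in the member regions, from 40.3% at Slamf1 +6.3 kb to 71.1%, and 54.2% over all tested regions. These shares describe letters in a short window and no test was made of them.

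To see where the marker genes were accessible, the 39 regions were placed along their genes. Of these, 21 lay within the gene itself, 17 of them in introns, and 11 lay within 1 kb of the gene's start. In the deposited lists, 14 of the 39 regions were called in all 12 libraries (28.6% of all 71006 regions were). Of these 14, 10 lay more than 1 kb from the start of the member gene, though some lay at starts of other genes, as given below. Counted from the start of any gene, 8 of the 23 tested member regions (34.8%) lay within 1 kb, near the 36.8% of all tested regions. The starts of Kit, Cd34 and Ctnnal1 were called in 12 of 12 lists. The starts of the other genes were called less often: Eng in 11, Procr in 9, Ly6a in 6, Fgd5 in 3 and Cd48 in 2 lists, and the region nearest the start of Esam, 0.935 kb upstream, in 6. No region lay at the start of Slamf1, for which the nearest was Slamf1 -5.1 kb.

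**Figure D1:**
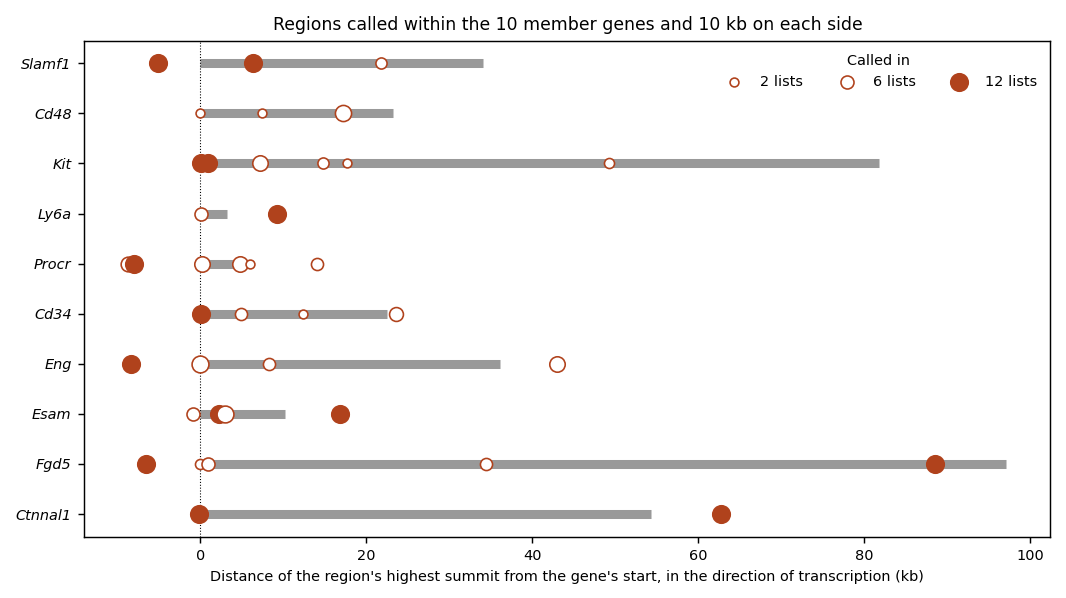
Position of the 39 regions along the 10 genes. The horizontal axis gives the distance of each region's highest summit from the gene's start in kb, in the direction of transcription, grey bars are gene bodies, circle size gives the number of lists that called the region, and filled circles were called in 12 of 12. Filled circles sit away from the start at Slamf1, Ly6a, Procr, Eng, Esam and Fgd5, at the start at Kit and Cd34, and both at the start and past the end at Ctnnal1.

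How high a region stood in each library is given as its place, the percentage of all regions called in that library whose score was at least as high, so that a small value is near the top. A longer list lowers this percentage by itself, so places describe a region within its own library and are not compared between ages. The region placed nearest the top was Eng -8.4 kb, between the genes upstream of endoglin. Its place was 5.71%, 5.7% and 17.0% (Young WT), 3.41%, 5.91% and 19.2% (Young Mlkl-/-), 3.07%, 4.55% and 6.44% (Aged WT) and 5.2%, 2.21% and 1.9% (Aged Mlkl-/-). All but 2 young libraries thus held it in the top 7 percent of their regions. These 2, Young WT 3 and Young Mlkl-/- 3, had the shortest lists. With all lists cut to 1 length, as described below, they still stood at 17.8% and 19.2%. The other young libraries then stood between 4.41% and 8.96%. The reason was not tested. Fgd5 -6.6 kb stood between 3.85% and 13.6% in 11 libraries and at 40.0% in Young Mlkl-/- 3. Procr -8.0 kb stood between 7.77% and 28.1%, Ly6a +9.3 kb between 8.93% and 35.0%, and the start of Ctnnal1 between 5.21% and 20.2%, each over all 12 libraries. The first intron of Esam held a region at +2.3 kb, named here after its values were seen, that stood between 10.6% and 29.7%.

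The weaker starts stood between the middle and the bottom of the lists that called them. The start of Eng lay between 41.4% and 98.8% in the 11 lists that held it, whereas Eng -8.4 kb stood at 19.2% or nearer the top in every list. The start of Procr lay between 41.8% and 96.3% in 9 lists, and the start of Fgd5 at 78.1%, 77.0% and 90.5% in 3. For Kit, the start stood between 16.5% and 56.1% and a second region in intron 1, Kit +0.9 kb, was called beside it in every list. The start of Cd34 stood between 26.4% and 81.3%.

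**Figure D2:**
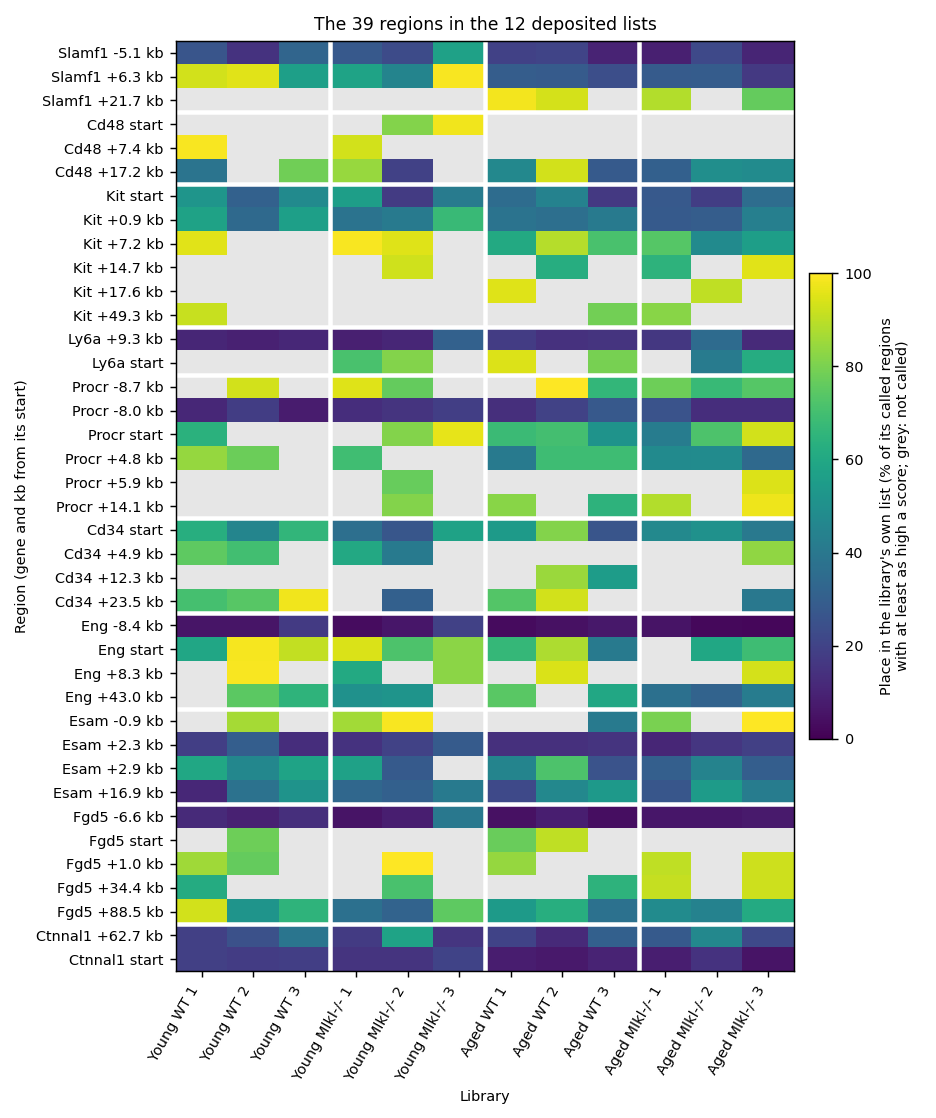
Place of each of the 39 regions (rows, grouped by gene) in each of the 12 deposited lists (columns, 3 per group). Colour gives the percentage of the library's called regions with at least as high a score, from dark (near the top) to yellow (near the bottom), and grey marks a region that was not called. The rows Eng -8.4 kb, Fgd5 -6.6 kb, Procr -8.0 kb, Ly6a +9.3 kb and Ctnnal1 start are dark in nearly every column, and the row Cd48 start is grey in 10 of 12.

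Some of these regions lay at other annotated genes, and a region is tied to a marker gene by distance alone. Ly6a +9.3 kb, beyond the far end of Ly6a, had its summit in the first exon of the non-coding gene Gm37042, within 0.009 kb of that gene's start. Ctnnal1 +62.7 kb lay in the UTR of Fam206a, 0.097 kb from its start, Esam +16.9 kb in the UTR of Nrgn, Eng +43.0 kb in intron 4 of Fpgs, and Cd34 +23.5 kb in an intron of Gm16897. Slamf1 and Cd48 are neighbours on chromosome 1, with 61.9 kb between the end of Cd48 and the start of Slamf1, and no region was counted for both.

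Slamf1 and Cd48, whose proteins set the CD150+ and CD48- gates of the sort, differed in how often their regions were called. Of the 3 regions of Slamf1, Slamf1 -5.1 kb and Slamf1 +6.3 kb were called in 12 of 12 lists, and Slamf1 +21.7 kb in 4 lists, all aged. Aged lists were longer on average, and 47.1% of all regions were called in more aged than young lists (16.6% in more young than aged). With all lists cut to 1 length, as described below, Slamf1 +21.7 kb was called in 0 of 12. None of the 3 regions of Cd48 was called in every list. The Cd48 start was called in 2 lists, both Young Mlkl-/-, and Cd48 +7.4 kb in Young WT 1 and Young Mlkl-/- 1. Cd48 +17.2 kb, in intron 2, was called in 10 lists, with places from 19.5% in Young Mlkl-/- 2 to 93.3% in Aged WT 2. No difference between the regions of these genes was tested, since counts of calls over regions of different genes are not replicates.

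The number of member regions called in a library followed the length of its list. Young lists kept 35714 to 56368 summits and held 18 to 31 of the 39 regions, and aged lists kept 47032 to 61495 summits and held 24 to 33. Of the 39 regions, 16 were called in more aged than young deposited lists (47.1% of all regions were) and 6 in more young than aged lists (16.6% of all). The depth of the libraries is unknown, and how far list length reflects it was not tested. All lists were therefore cut to the 35714 highest summits, the length of the shortest. In these, 16 to 23 member regions were called per library, 11 of 39 regions were called in all 12 lists (21.9% of all regions were), 10 of 39 were called in more aged than young lists (23.2% of all) and 8 of 39 in more young than aged lists (22.0% of all). The share of member regions called was 1.71 percentage points higher in aged than in young libraries and 2.56 points higher in Mlkl-/- than in WT libraries, both below the spread between libraries of a group (SD 4.56 points). Over all regions these differences were 0.722 and 0.857 points. Single libraries moved both: the age difference was 0.0 points without Aged Mlkl-/- replicate 2, 4.1 without Aged WT replicate 2, 3.25 without Young Mlkl-/- replicate 3, 2.65 without Young WT replicate 2 and 1.03 without Aged WT replicate 3. The genotype difference was 0.598 points without Aged WT replicate 2, 0.94 without Aged Mlkl-/- replicate 2 and 3.68 without Aged WT replicate 3. It was above the spread with scores of at least 5 (5.86 points, SD 5.57). It was also above the spread in the 9 libraries sharing a mark in their names (4.74 points, SD 4.44).

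To compare the groups by rank, each region received a normal score in each equal-length list, the standard normal value of its rank among all regions, with uncalled regions sharing the lowest value (between -0.57 and -0.52). The 23 member regions called in at least 3 of the 12 lists were tested with all 37876 such regions in limma, and the other 16, which were called in fewer, are given by their calls only. No member region passed an adjusted p under 0.01 for age over both genotypes (0 of 23, against 2.72% of all tested regions), for age in WT (0 of 23, against 0.203%) or for age in Mlkl-/- (0 of 23, against 0.15%). At an unadjusted p under 0.05, 7 of 23 member regions differed with age over both genotypes, where 22.1% of all tested regions did. For age in WT this number was 2 of 23 (14.6% of all) and for age in Mlkl-/- 3 of 23 (14.4% of all). The median age difference of the member regions was 0.07, with 15 of 23 above 0, beside -0.01 for all tested regions, of which 49.1% were above 0. Kit +7.2 kb and Cd34 +4.9 kb met the minimum of 3 lists through 1 age alone.

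The largest age difference was at Slamf1 +6.3 kb, in intron 1 of the CD150 gene. Its normal score was -0.54, -0.53 and 0.69 (Young WT), 0.49, 0.53 and 0.26 (Young Mlkl-/-), 0.91, 0.99 and 0.97 (Aged WT) and 0.87, 0.99 and 1.21 (Aged Mlkl-/-). All 6 aged libraries stood above all 6 young libraries, and Young WT 1 and 2 were at the lowest value since the region dropped out when their lists were cut. The difference was 0.84 ± 0.21 (SE; limma adjusted p = 0.0209), which missed the threshold of 0.01. In the deposited lists the score itself was 4.081, 3.849 and 9.089 (Young WT), 8.755, 12.02 and 3.215 (Young Mlkl-/-), 18.13, 17.53 and 18.01 (Aged WT) and 17.74, 16.11 and 30.1 (Aged Mlkl-/-), values that are not scaled between libraries of unknown depth and are given as a description.

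The age difference at Slamf1 +6.3 kb was 1.08 ± 0.30 in WT (SE; limma adjusted p = 0.0672) and 0.59 ± 0.30 in Mlkl-/- mice (limma adjusted p = 0.369), and they were not shown to differ from each other (-0.49 ± 0.42, limma adjusted p = 0.964). Without Young WT replicate 3, the young WT library with the highest value, the difference over both genotypes was 1.04 ± 0.18 and passed the threshold (limma adjusted p = 0.00285). It also passed with lists of unequal length (0.65 ± 0.16, limma adjusted p = 0.00937). With the length of the list as a covariate it was 0.94 ± 0.28 (limma adjusted p = 0.0926). Summits in 4 single-copy genes of the Y chromosome were present in 3 of 6 young and 0 of 6 aged libraries, and without these 3 libraries the difference was 0.83 ± 0.26 (limma adjusted p = 0.0978).

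**Figure D3:**
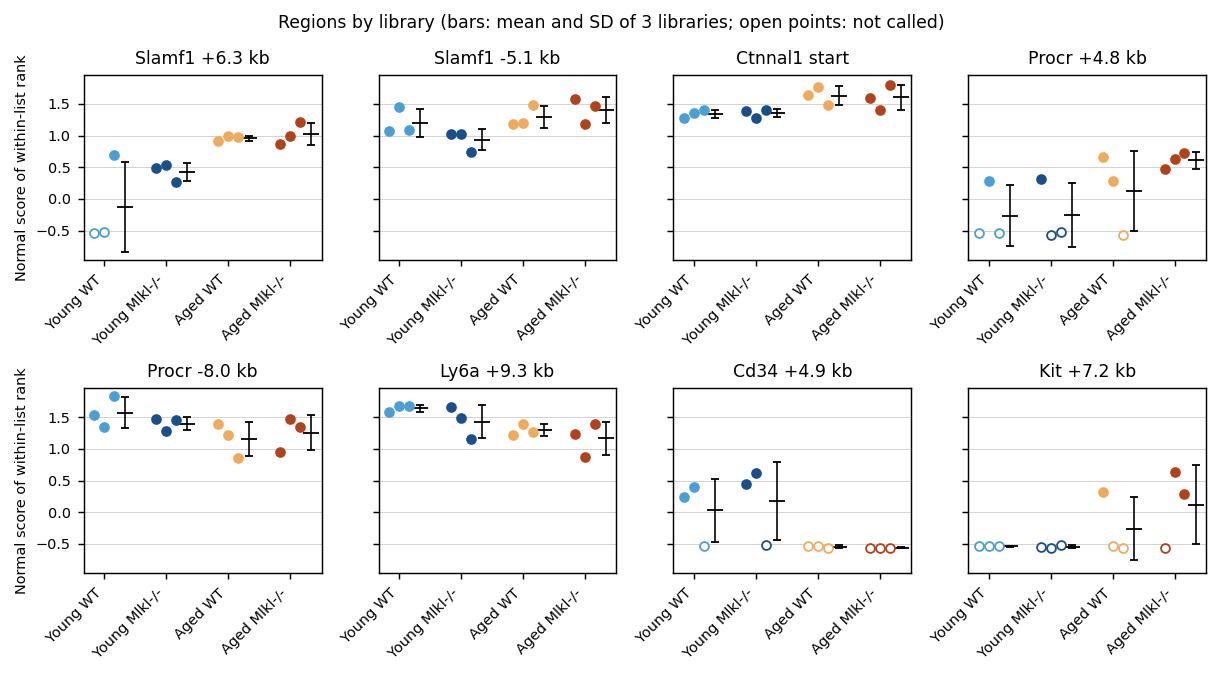
Normal scores of within-list rank (vertical axis) for 8 regions in each of the 12 libraries, grouped on the horizontal axis by age and genotype with 3 points per group. Open points were not called in the equal-length list, and black bars give the mean and SD of the 3 libraries. At Slamf1 +6.3 kb and at the Ctnnal1 start all aged points lie above all young points, and at Cd34 +4.9 kb filled points are present in 4 of 6 young and 0 of 6 aged libraries.

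The region upstream of Slamf1 stood higher in both ages and differed less. Slamf1 -5.1 kb had normal scores of 1.07, 1.45 and 1.08 (Young WT), 1.03, 1.03 and 0.74 (Young Mlkl-/-), 1.18, 1.20 and 1.49 (Aged WT) and 1.57, 1.18 and 1.47 (Aged Mlkl-/-). The ages overlapped through Young WT 2, and the difference of 0.28 ± 0.13 did not pass (SE; unadjusted p = 0.0393, limma adjusted p = 0.201). It was 0.10 with the length of the list as a covariate (limma adjusted p = 0.816).

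At Ctnnal1, whose start lies in open chromatin in every library, normal scores were 1.27, 1.35 and 1.40 (Young WT), 1.39, 1.28 and 1.40 (Young Mlkl-/-), 1.64, 1.77 and 1.48 (Aged WT) and 1.60, 1.41 and 1.80 (Aged Mlkl-/-). All aged values were above all young values, the nearest being 1.41 in Aged Mlkl-/- 2 and 1.40 in the young libraries. The difference was 0.27 ± 0.11 (SE; limma adjusted p = 0.145). Slamf1 +6.3 kb and the Ctnnal1 start were the only 2 of 23 tested member regions in which young and aged libraries did not overlap, both with higher values in aged libraries, where 3.88% of all tested regions did not overlap.

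Procr, which encodes the EPCR protein used to enrich for HSCs, had regions on either side whose differences pointed in opposite directions. Procr +4.8 kb, just past the end of the gene, had normal scores of -0.54, 0.29 and -0.54 (Young WT), 0.32, -0.57 and -0.52 (Young Mlkl-/-), 0.66, 0.29 and -0.57 (Aged WT) and 0.47, 0.63 and 0.73 (Aged Mlkl-/-). Of the equal-length lists, 2 from young and 5 from aged mice held it, with a difference of 0.63 ± 0.27 (SE; unadjusted p = 0.0324, limma adjusted p = 0.18). Procr -8.0 kb was called in every list, with normal scores of 1.54, 1.34 and 1.83 (Young WT), 1.47, 1.28 and 1.45 (Young Mlkl-/-), 1.39, 1.22 and 0.86 (Aged WT) and 0.95, 1.47 and 1.35 (Aged Mlkl-/-). Its difference was -0.28 ± 0.13 (SE; unadjusted p = 0.0494, limma adjusted p = 0.225), and the ages overlapped at both regions. The start of Procr differed by 0.32 ± 0.28 (limma adjusted p = 0.565).

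Cd34, which is low or absent on the surface of most long-term HSCs of adult mice, had 3 tested regions, none of which passed. Cd34 +4.9 kb, in intron 1, had normal scores of 0.24, 0.39 and -0.54 in Young WT and 0.45, 0.62 and -0.52 in Young Mlkl-/- libraries, and was not called in any aged equal-length list. The deposited lists held it for 4 young libraries and for 1 aged library (Aged Mlkl-/- 3, at a place of 83.3%). It was tested only because 4 young lists held it, with every aged value at the lowest rank, and its difference of -0.66 ± 0.24 (SE; limma adjusted p = 0.106) is therefore given as a description. The Cd34 start differed by -0.30 ± 0.21 (limma adjusted p = 0.452), which became -0.10 without Aged WT replicate 2, the 1 aged equal-length list that did not hold it, and Cd34 +23.5 kb by -0.34 ± 0.29 (limma adjusted p = 0.54).

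Ly6a +9.3 kb was called in every list, with normal scores of 1.58, 1.68 and 1.67 (Young WT), 1.66, 1.48 and 1.15 (Young Mlkl-/-), 1.22, 1.40 and 1.26 (Aged WT) and 1.23, 0.87 and 1.39 (Aged Mlkl-/-). Young WT lay above Aged WT throughout, whereas Young Mlkl-/- 3 was within the range of the aged libraries. The difference was -0.31 ± 0.12 (SE; unadjusted p = 0.0217, limma adjusted p = 0.139). The start of Ly6a itself was called in 2 of 12 equal-length lists, Young Mlkl-/- 1 and Aged Mlkl-/- 2, and was not tested.

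The remaining genes differed by less than these or with wider errors. Kit +7.2 kb (chr5:75581849-75582597), in intron 1 of the stem cell factor receptor gene, was held by 0 young and 3 aged equal-length lists, and by 3 young and 6 aged deposited lists, with a difference of 0.47 ± 0.24 (SE; limma adjusted p = 0.242). It entered the test through the aged lists alone, with every young value at the lowest rank, so that this value is a description. The Kit start, with normal scores between 0.52 and 1.20 in young and between 0.68 and 1.29 in aged libraries, differed by 0.07 ± 0.17 (limma adjusted p = 0.838). Cd48 +17.2 kb differed by 0.33 ± 0.33 (limma adjusted p = 0.614), Eng -8.4 kb by 0.25 ± 0.14 (limma adjusted p = 0.287), Fgd5 -6.6 kb by 0.25 ± 0.14 (limma adjusted p = 0.285) and Esam +16.9 kb by -0.31 ± 0.17 (limma adjusted p = 0.298). Differences at the Eng start, Fgd5 +88.5 kb and Ctnnal1 +62.7 kb were 0.01 ± 0.29, -0.01 ± 0.22 and -0.08 ± 0.19, and each was smaller than its error.

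**Figure D4:**
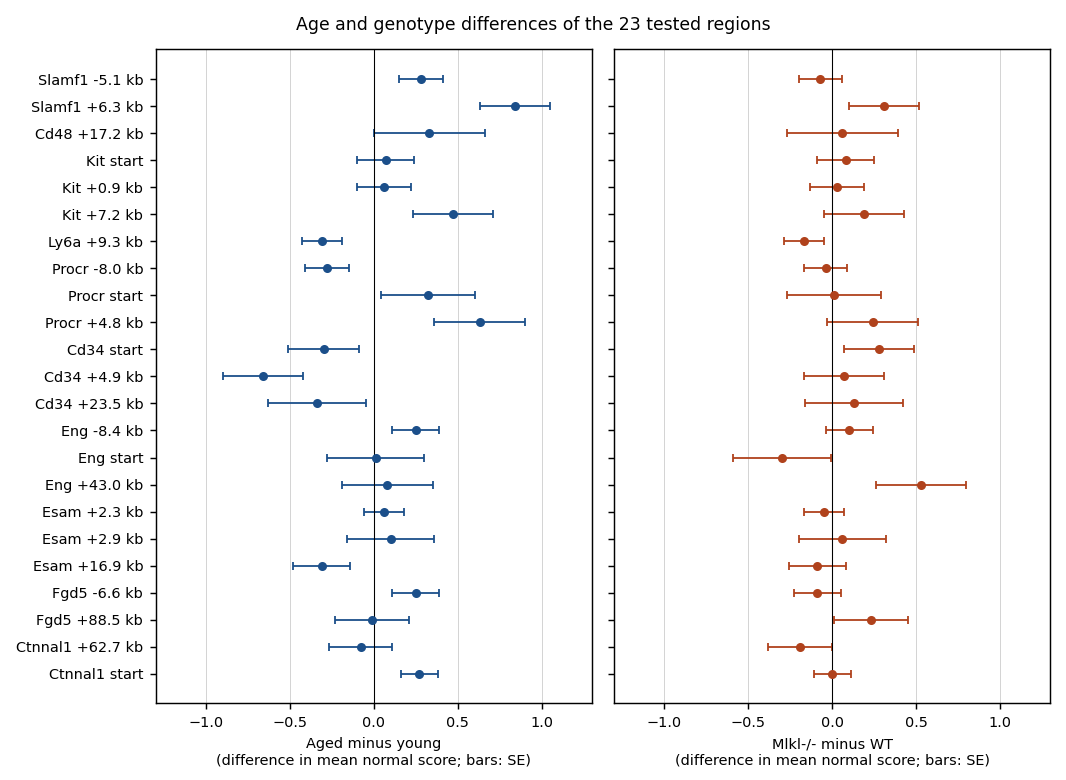
Differences in mean normal score for the 23 tested regions (rows), aged minus young over both genotypes on the left and Mlkl-/- minus WT over both ages on the right, with the SE as bars (limma, 12 libraries). Slamf1 +6.3 kb has the largest age difference (0.84) and Eng +43.0 kb the largest genotype difference (0.53), and no region passed an adjusted p under 0.01 in either panel.

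The effect of losing Mlkl was compared next. No member region passed an adjusted p under 0.01 for genotype over both ages, at 3 months or at 18 months, and in each of these comparisons no region in the genome did (0.0% of all tested regions). At an unadjusted p under 0.05, the number of member regions was 0 of 23 over both ages (6.2% of all tested regions), 0 of 23 at 3 months (5.36%) and 1 of 23 at 18 months (5.08%). The age difference differed between genotypes at 0 of 23 member regions by the adjusted p (0.0% of all tested regions) and at 0 of 23 by an unadjusted p under 0.05 (4.79%). Among members, the median genotype difference was 0.06, with 14 of 23 above 0, beside 0.00 and 50.3% for all tested regions.

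The 1 region was Eng +43.0 kb, which lies in Fpgs, past the end of Eng, at chr2:32689343-32689861. At 18 months its normal scores were -0.54, -0.53 and 0.22 in WT and 0.69, 0.93 and 0.55 in Mlkl-/- libraries, which did not overlap. Of the 3 Aged WT libraries, 2 held the region in their deposited lists and 1 in its equal-length list. The values of -0.54 and -0.53 are thus the lowest value, shared by uncalled regions. Eng +43.0 kb was the only one of 23 tested member regions whose WT and Mlkl-/- libraries did not overlap at this age, where 10.8% of all tested regions did not. The difference was 1.01 ± 0.38 (SE; unadjusted p = 0.0169, limma adjusted p = 0.87). At 3 months the same region had values of -0.54, 0.32 and 0.58 in WT and 0.61, 0.41 and -0.52 in Mlkl-/- libraries, a difference of 0.04 ± 0.38. The difference of the age changes was 0.97 ± 0.54 (limma adjusted p = 0.964).

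None of the genotype differences at the SLAM genes and the other surface markers passed. Over both ages, Slamf1 +6.3 kb differed by 0.31 ± 0.21 (SE; limma adjusted p = 0.842), Slamf1 -5.1 kb by -0.07 ± 0.13, Cd48 +17.2 kb by 0.06 ± 0.33, the Kit start by 0.08 ± 0.17, Ly6a +9.3 kb by -0.17 ± 0.12, Procr -8.0 kb by -0.04 ± 0.13 and the Cd34 start by 0.28 ± 0.21. The narrowest error was at the Ctnnal1 start, with young means of 1.34 ± 0.07 for WT and 1.36 ± 0.07 for Mlkl-/- pools, and aged means of 1.63 ± 0.14 for WT and 1.60 ± 0.20 for Mlkl-/- pools (SD, n = 3 each). A p that misses the threshold does not show that the genotypes are alike. Errors of 0.11 to 0.33 set what 6 pools per genotype could show over both ages. At 1 age, with 3 pools per group, the errors were wider, from 0.15 at the Ctnnal1 start to 0.46 at Cd48 +17.2 kb.

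Genes related to the members were counted in the same way. Around 9 other genes of the SLAM family and its adaptors (Slamf6, Slamf7, Slamf8, Slamf9, Ly9, Cd84, Cd244a, Sh2d1a and Sh2d1b1) 25 regions were found, 3 of them in all 12 lists, and 0 of 8 tested regions passed for age or genotype in limma, with 2 and 0 at an unadjusted p under 0.05. Around 17 other surface genes of HSCs, among them the integrin gene Itga2b and Neo1, 89 regions were found, 25 of them in all 12 lists, and 0 of 45 tested regions passed, with 8 for age and 2 for genotype at an unadjusted p under 0.05. Over all regions, 28.6% were called in all 12 lists. Of all tested regions, 2.72% passed for age and 0.0% for genotype over both ages. At an unadjusted p under 0.05 in limma these shares were 22.1% for age and 6.2% for genotype. The median age difference was -0.02 in the first list and -0.11 in the second, beside -0.01 for all tested regions. No difference between these lists and all regions was tested.

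Regions at marker genes of other blood cells were counted as well. Those called in all 12 deposited lists numbered 3 of 8 at T cell genes and 2 of 4 at B cell genes. They numbered 2 of 9 at myeloid genes and 6 of 9 at erythroid genes. Beside these stood 14 of 39 at the member genes and 28.6% of all 71006 regions. Such counts do not set the other blood cell genes apart from the member genes, so they do not check the label of the cells. None of the T or B cell genes was called at its start in any list, and Cd3e, Cd8a, Ms4a1 and Ly6g had no region at all. In the equal-length lists, young and aged libraries held 3 to 4 and 2 to 5 regions of the T cell genes, 2 to 3 and 2 to 3 of the B cell genes, 2 to 3 and 1 to 3 of the myeloid genes, and 6 to 7 and 6 to 7 of the erythroid genes. Of the progenitor genes Il7r, Fcgr3 and Flt3, 17 regions were found and 11 were tested. Of these 11, 1 passed for age, where 2.72% of all tested regions did. The region that passed lay 37.2 kb past the start of Flt3 (the receptor Flk2, whose protein the sort excluded). Its difference was -1.12 ± 0.21 (SE, limma adjusted p = 0.00237). It was held by 6 young and 0 aged equal-length lists, and by 6 young and 3 aged deposited lists. This region entered the test through the young lists alone, with every aged value at the lowest rank, so that the filter favoured a difference. Whether cells other than HSCs contributed to any member region was not tested. The targeted gene, Mlkl, was called within 1 kb in all 12 lists of both genotypes, which does not check the genotype.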

How the data were processed

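The authors mapped single reads to mm10 with Bowtie2 2.5.3 and called peaks per library with MACS2 2.2.7.1 (nomodel), per the study's methods and processing notes. The deposited lists hold 1 summit per line with its −log10 q-value, start just above 2 although the stated q-value cutoff was 0.001, and hold 36805 to 63125 summits. They give no read counts, so depth is unknown and no count model or counting interval was used.

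Summits with a score of at least 3 on chromosomes 1 to 19, X and Y were used. Genes came from GENCODE vM21 on the same build. In every test scores served only to filter and rank summits within a list, and those of Slamf1 +6.3 kb are printed as deposited. Ties at the cut to 35714 summits were broken under a fixed seed. Normal scores were fitted with limma 3.58.1 (R 4.3.3), using its variance trend, over 12 libraries in 4 groups with 7 contrasts, with Benjamini-Hochberg adjustment over all 37876 tested regions and a call at an adjusted p under 0.01. The procedure was also run on simulated lists. Changes were placed there only in regions with a mean score above the median of tested regions, and every region had the same spread. That run therefore does not show what could be found at weaker or partly uncalled regions. Python 3.11.15 with numpy 2.4.6, scipy 1.17.1 and pandas 2.3.3 did the rest.

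The member genes, lists and tests were chosen with earlier results of these data known. Named regions are, for each gene, the one at or nearest its start and those with the largest age and genotype difference, plus any past the threshold or called in all lists of 1 group and none of another. Slamf1 +21.7 kb, Cd48 +7.4 kb, Kit +0.9 kb, Procr -8.0 kb, Cd34 +23.5 kb and Esam +2.3 kb fall outside it and were named after their values were seen. Alternatives covered scores, list lengths, windows, flanks, filters, scale, threshold, separate fits, a replicate block, covariates and each library left out. Another seed and the libraries without summits in Y genes were added after seeing the data, as was the choice of 4 single-copy Y genes (Ddx3y, Eif2s3y, Kdm5d and Uty) to mark the Y chromosome.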

Additional observations from a re-analysis of the deposited data

How the results depend on the processing

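The counts of member regions past the threshold stayed at 0 for age in WT, age in Mlkl-/-, genotype over both ages, genotype at either age and the difference of age changes under the 29 or 28 alternatives run for each. For age over both genotypes the count became 1, Slamf1 +6.3 kb, in 3 alternatives. With lists of unequal length it was 1 of 34 tested member regions, against 3.88% of all tested regions. With an adjusted p under 0.05 it was 1 of 23, against 7.78% of all. With each library left out it ranged from 0 to 1. The 1 arose without Young WT replicate 3 (1 of 23, against 2.01% of all). The age difference of Slamf1 +6.3 kb kept its direction in 24 alternatives (adjusted p from 0.00285 to 0.131) and was 0.74 ± 0.27 with summits in Y genes as a covariate (adjusted p = 0.131). The excess of called member regions in aged over young lists was 9.83 percentage points with lists of unequal length, against 11.7 over all regions, and 0.0 to 4.1 with each library left out. That in Mlkl-/- over WT lists was 2.99 points with lists of unequal length, against 2.7 over all regions. It was 0.598 to 3.68 with each library left out, and 5.86 with scores of at least 5. Over all tested regions, the 1029 calls for age (2.72%) became 2030 with lists of unequal length (3.88%) and 2945 at an adjusted p under 0.05 (7.78%). They became 72 with list length as a covariate (0.19%) and 330 with Y summits as a covariate (0.871%). They were 272 in the 9 libraries sharing a name mark (0.794%) and 222 in libraries with no summit in Y genes (0.639%). Without Aged Mlkl-/- replicate 1 or 2 they were 679 (1.84%). The 77 calls for age in WT ranged from 0 (percentile scale and separate fits) to 734 (adjusted p under 0.05) and the 57 in Mlkl-/- from 0 (percentile scale) to 563 (adjusted p under 0.05), and were 27 and 22 with a replicate block. With a replicate block the count for age stayed at 0 and Slamf1 +6.3 kb differed by 0.84 (adjusted p = 0.0288). The replicate numbers did not pair the libraries: deviations of same-numbered libraries correlated between -0.301 and 0.128, with 1 of 18 pairs over 0.1, and 2 of 12 libraries were closest to their own number.

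Alternatives were run for the age difference of 18 named regions, of which 6 turned sign under at least 1, each with a difference that did not exceed its error. The Kit start gave -0.04 with Y summits as a covariate, -0.02 in libraries with no summit in Y genes and -0.02 to 0.15 with each library left out. The Eng start gave -0.15 with lists of unequal length, -0.09 with Y summits as a covariate, -0.11 in 9 libraries sharing a mark in their names that no label explains, -0.22 in libraries with no summit in Y genes and -0.16 to 0.18 with each library left out. Eng +43.0 kb gave -0.05 with list length as a covariate and -0.10 to 0.19 with each library left out. Fgd5 +88.5 kb gave 0.37 on the percentile scale, 0.09 with list length as a covariate and -0.20 to 0.10 with each library left out. Ctnnal1 +62.7 kb gave 0.04 with scores of at least 5, 0.19 with list length as a covariate and -0.28 to 0.04 with each library left out. Cd48 +17.2 kb gave -0.20 with list length as a covariate. The cause was not tested. With 3 pools per group and no read counts, a region near the bottom of a list cannot be told from one that was not called.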
